A study of Mus musculus with 42 samples.

Results

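The clock output genes described here were 9 genes read by gene symbol from the array annotation: the PAR bZIP factors Dbp, Tef and Hlf, their antagonist Nfil3, the repressors Ciart, Bhlhe40 and Bhlhe41, the cell cycle kinase Wee1 and the glucocorticoid-linked gene Tsc22d3. They were covered by 11 of the 55681 probes of the array, 26413 of which carried a gene symbol (20018 genes in all). Male Muta™Mouse, a transgenic mutation-reporter strain whose transgene the controls also carried, were about 11 weeks old. They received benzo(k)fluoranthene (BkF) in olive oil by gavage for 28 days, at 25 (D1), 50 (D2) or 100 (D3) mg/kg-bw/day, or olive oil alone (D0), and tissues were taken 72 h after the last dose. RNA of lung, liver and forestomach was hybridised in the red channel against a universal mouse reference RNA in the green channel, which gave 15 lung arrays (D0 to D3: 4, 3, 4 and 4), 13 liver arrays (4, 2, 3 and 4) and 14 forestomach arrays (4, 3, 4 and 3) from 15 mice, 12 of which gave all 3 tissues. Each value is a log2 ratio of sample over reference, so that 0 is the level of the reference RNA and a difference of 1 is a doubling. The replicate is the mouse. The RNA came from a random slice of each tissue, and the time of day of necropsy is not given in the sources used here.

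The circadian clock is a feedback loop in which CLOCK and BMAL1 (the product of Arntl) bind E-boxes and drive their own repressors, and output genes carry that rhythm to the physiology of each tissue. DBP, TEF and HLF share a proline and acidic amino acid rich (PAR) bZIP structure and activate genes through D-boxes, among them genes of hepatic drug and steroid metabolism, while NFIL3 (E4BP4) represses through the same element and cycles in opposite phase to Dbp. Tsc22d3 encodes GILZ, a direct target of the glucocorticoid receptor, and so follows the daily rhythm of corticosterone. BkF is a polycyclic aromatic hydrocarbon that activates the aryl hydrocarbon receptor, which binds the xenobiotic response element with ARNT, a bHLH-PAS protein of the same family as CLOCK and BMAL1.

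The promoters of the 4 genes that bind D-boxes are shown because the comparisons between them carry the results. RefSeq sequences on GRCm38.p6, each of 300 bases from 250 before the transcription start to 50 after it, were at hand for 7 of the 9 members (10 promoters), but not for Bhlhe40 and Wee1. Both strands were searched for the E-box CACGTG, the D-boxes TTATGTAA and TTACGTAA and the xenobiotic response element core GCGTG, none of which can match at the same position as another. The Dbp promoter (chr7:45704997-45705296, plus strand) held 2 xenobiotic response element cores and the Hlf promoter (chr11:90390868-90391167, minus strand) held 4, printed in capitals on whichever strand they lay (GCGTG or its reverse complement CACGC). The Tef promoter (chr15:81811164-81811463, plus strand) held 1 E-box, in capitals, and 1 xenobiotic response element core, left in lower case, and a second Tef promoter (chr15:81802423-81802722, plus strand) held 1 E-box and no core. The Nfil3 promoter (chr13:52980990-52981289, minus strand) held none of the searched letters.
Dbp: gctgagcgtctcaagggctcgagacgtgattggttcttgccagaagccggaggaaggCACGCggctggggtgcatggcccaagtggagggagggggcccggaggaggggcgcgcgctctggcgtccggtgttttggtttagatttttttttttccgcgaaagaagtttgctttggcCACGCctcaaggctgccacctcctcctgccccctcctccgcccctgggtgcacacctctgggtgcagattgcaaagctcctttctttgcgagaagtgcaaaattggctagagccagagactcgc
Tef: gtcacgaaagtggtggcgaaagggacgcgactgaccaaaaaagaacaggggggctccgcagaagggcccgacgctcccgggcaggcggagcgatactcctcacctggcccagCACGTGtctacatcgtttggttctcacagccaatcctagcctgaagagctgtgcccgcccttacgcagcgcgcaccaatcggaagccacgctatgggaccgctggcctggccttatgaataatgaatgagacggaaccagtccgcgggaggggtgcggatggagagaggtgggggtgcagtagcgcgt
Hlf: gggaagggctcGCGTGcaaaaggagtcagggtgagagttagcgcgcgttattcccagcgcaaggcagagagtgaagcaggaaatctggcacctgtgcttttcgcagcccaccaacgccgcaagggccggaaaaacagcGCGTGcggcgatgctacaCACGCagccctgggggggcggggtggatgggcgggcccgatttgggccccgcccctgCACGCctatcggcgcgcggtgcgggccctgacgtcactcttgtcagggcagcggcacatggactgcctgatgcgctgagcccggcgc
Nfil3: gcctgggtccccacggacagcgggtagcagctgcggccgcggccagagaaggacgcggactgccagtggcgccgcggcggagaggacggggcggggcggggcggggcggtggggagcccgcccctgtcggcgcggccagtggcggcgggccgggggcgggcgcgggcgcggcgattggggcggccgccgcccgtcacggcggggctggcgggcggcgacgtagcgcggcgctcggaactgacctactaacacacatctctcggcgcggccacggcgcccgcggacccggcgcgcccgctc
Over 32851 promoters of the same length, 32.4% held GCGTG, 7.15% held CACGTG, 0.938% held TTATGTAA and 0.119% held TTACGTAA. No D-box was found in any of the 10 member promoters. The Ciart promoter (chr3:95882179-95882478, minus strand) held 3 E-boxes, and no E-box was found in the windows of Dbp and Hlf. These matches describe letters in a window and are not binding sites.

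Of the 9 members, 9 passed the filter on dim probes in lung, 8 in liver (all but Ciart) and 7 in forestomach (all but Ciart and Bhlhe41). Dbp, Tef, Hlf, Nfil3, Bhlhe40 and Tsc22d3 were well above background, by the scanner software's flag for the red channel, on every array. Ciart was well above background on 14 of 15 lung arrays and on no liver or forestomach array, and Bhlhe41 on 12 of 15 lung arrays, 5 of 13 liver arrays and no forestomach array. The labelled tissues were checked on marker genes: 6 of 6 lung markers, 6 of 6 liver markers and 5 of 6 forestomach markers were well above background on every array of their tissue. Several arrays stood apart in markers of other tissues, read as a score, the mean log2 ratio of a marker list on an array relative to the median array of the tissue. The score for skeletal muscle markers was 6.15 in 1 lung array (D2, mouse 12) and -0.36 to 0.52 in the other lung arrays, and the same array had a forestomach marker score of 3.09 against -0.24 to 0.28, and it was 5.10 in 1 liver array (D3, mouse 17). In forestomach the glandular stomach marker score split the arrays into 5 with low scores (-5.07 to -3.90) and 9 with high scores (-0.51 to 0.64), and the low ones made up 2 of 4 D0, 0 of 3 D1, 1 of 4 D2 and 2 of 3 D3 arrays. A lung array of D1 (mouse 7) had a glandular score of 3.70. Liver arrays lay on 2 slides of their own, whereas lung and forestomach shared 4 slides. As a check of the exposure, Cyp1a1, the classical aryl hydrocarbon receptor target, was higher in lung at D3 by 6.81 (limma, adjusted p = 0.00341). It passed in no dose group of liver or forestomach. Among control arrays it was well above background on 0 of 4 in liver and 1 of 4 in forestomach. The liver means were 5.71 at D2 (lowest 3.73) and 5.28 at D3 (lowest 2.62), against 0.02 at D0 (highest 0.23). In forestomach the D3 mean was 3.39 (lowest 2.08), against 0.15 at D0 (highest 0.60). The D1 values overlapped with the controls in both tissues.

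In the olive oil controls, Tef and Tsc22d3 were highest in lung, Hlf and Nfil3 were highest in liver, and Dbp did not differ between tissues beyond its spread between mice. A gene was called different where the Benjamini-Hochberg adjusted p of limma over all probes was at most 0.05 and the difference at least 1.5-fold. By that rule 4 of 8 members differed between vehicle lung and liver, where 48.5% of all probes did, 2 of 7 between lung and forestomach (37.6% of all probes) and 3 of 7 between liver and forestomach (44.7% of all probes). The members were called at about the share of probes in general. Tissue cannot be told apart from slide and scanner software version for liver, and in these bulk samples fewer cells of a type cannot be told apart from less RNA per cell.

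Tef, which encodes thyrotroph embryonic factor, had log2 ratios of 1.48, 1.01, 0.96 and 1.64 in the lungs of the control mice 1 to 4, of 0.21, 0.39, -0.42 and 0.60 in liver, and of -1.05, -0.30, -0.51 and 0.35 in forestomach. Lung lay above both other tissues in each mouse. The difference was 1.08 for lung minus liver (2.11-fold, limma, adjusted p = 0.000943) and 1.65 for lung minus forestomach (3.13-fold, adjusted p = 6.57e-06), while liver minus forestomach, at 0.57, missed the threshold (adjusted p = 0.0729) but passed it without the liver array of mouse 3 (0.78) or the forestomach array of mouse 4 (0.82). Hlf, hepatic leukemia factor, stood at 2.64, 2.49, 2.17 and 2.94 in liver, with lung between 0.48 and 1.01 and forestomach between 0.77 and 1.37. No value of liver overlapped with those of the other tissues. The lung minus liver difference was -1.77 (3.42-fold, limma, adjusted p = 8.13e-07) and liver minus forestomach was 1.53 (2.90-fold, adjusted p = 1.11e-05), but lung and forestomach did not differ beyond their spread (-0.24, adjusted p = 0.476).

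Nfil3 showed the widest gap between tissues of the members. Its log2 ratios in control liver were 1.14, 1.38, 2.14 and 0.95, all above the highest value in lung (-0.55) and in forestomach (-0.54). Lung minus liver was -2.71 (6.54-fold, limma, adjusted p = 2.21e-09) and liver minus forestomach 2.35 (5.11-fold, adjusted p = 5.22e-08), and lung minus forestomach was -0.35 and not called. Hlf and its antagonist Nfil3 were both highest in liver. Tsc22d3 followed another order, with 2.42, 3.12, 2.04 and 2.16 in lung, 1.46, 2.39, 1.49 and 1.39 in liver and 0.35, 1.49, 0.65 and 0.37 in forestomach. Lung was above liver and liver above forestomach in each of the 4 mice, with steps of 0.75 (1.69-fold, limma, adjusted p = 0.0281) and 0.97 (1.95-fold, adjusted p = 0.00623). The lung to liver step lost its call without the lung array of mouse 2, where it was 0.53, and without any 1 of the liver arrays of mice 1, 3 and 4 (0.66 to 0.69).

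**Figure D1:**
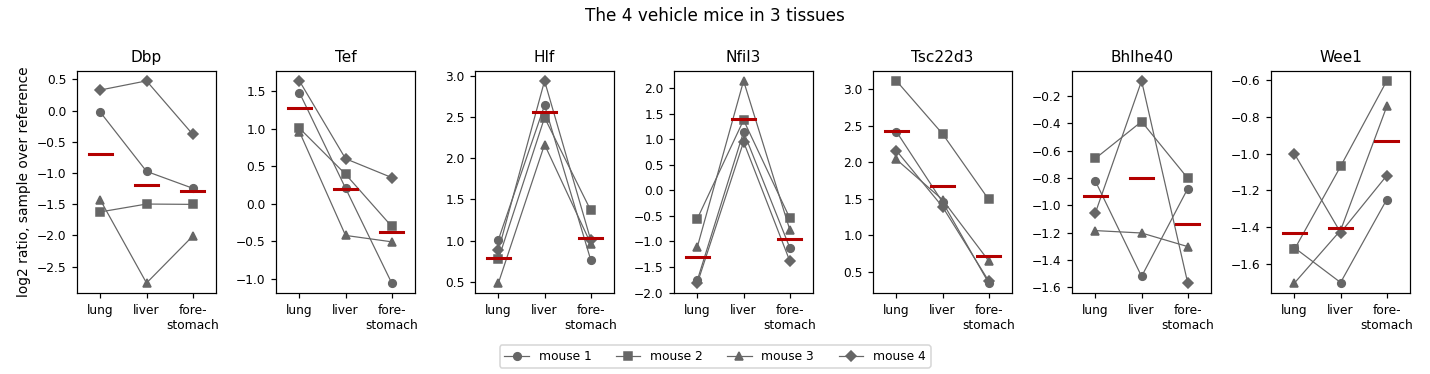
Log2 ratio of sample over reference (vertical axis) of 7 members in lung, liver and forestomach of the 4 vehicle mice, with 1 symbol per mouse joined by lines and red bars for the mean. Tef and Tsc22d3 step down from lung to forestomach, Hlf and Nfil3 peak in liver, and Dbp of mouse 3 in liver lies at -2.76.

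Dbp varied more between control mice than any other member in each tissue. The 4 control livers read -0.97, -1.50, -2.76 and 0.48, a range of 3.24 (9.44-fold), and the range was 1.95 in lung and 1.63 in forestomach. Mouse 4 was the highest control in all 3 tissues, and mouse 3 the lowest in liver and forestomach. Mean Dbp differed between vehicle tissues by 0.50 (lung minus liver), 0.60 (lung minus forestomach) and 0.10 (liver minus forestomach), none of which was called. Leaving out 1 array moved lung minus liver to between -0.02 and 1.06. For Bhlhe40 and Wee1 no pair of vehicle tissues was called different. Ciart, a repressor of CLOCK and BMAL1, was well above background in all 4 control lungs and in none of the control livers or forestomachs, so no fold between tissues is given for it.

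The dose comparisons ask whether 28 days of BkF shifted the clock outputs. No member passed the threshold at any dose or in the trend with dose in any tissue, and calls were rare among all probes. In lung the count was 0 of 9 at D1 (0% of all probes called), at D2 (0.0153%), at D3 (0.0336%) and in the trend (0.0336%). In liver it was 0 of 8 at D1 (0%), at D2 (0.0427%), at D3 (0.0525%) and in the trend (0%), and in forestomach 0 of 7 at D1 (0%), D2 (0%), D3 (0%) and in the trend (0%). At an unadjusted p under 0.05, 1, 2 and 2 members were higher at D1, D2 and D3 in lung with none lower. In liver 1 was lower at D2, and 2 were higher and 1 lower at D3, with none at D1. In forestomach 1 was higher at D1, 1 at D2 and 2 at D3, with 1 lower at D3. Of all probes, 1.76%, 4.25% and 8.02% had an unadjusted p under 0.05 in either direction at D1, D2 and D3 in lung, 1.53%, 3262 of 30468 probes and 7.8% in liver and 12.1%, 7.59% and 2.2% in forestomach. The median difference from control over the members was 0.09, 0.27 and 0.20 at D1, D2 and D3 in lung, -0.13, 0.27 and 0.26 in liver and -0.18, 0.30 and 0.34 in forestomach.

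The member with the greatest difference was Dbp. In lung its log2 ratios were -0.03, -1.62, -1.43 and 0.33 at D0, 0.84, 1.52 and -0.51 at D1, 1.73, -0.07, 0.52 and 0.19 at D2, and 0.84, 1.32, 0.66 and 1.59 at D3. All 4 D3 lungs lay above every control lung, while D1 and D2 overlapped with the controls. The D3 mean of 1.11 ± 0.43 (SD, n = 4) exceeded the D0 mean of -0.69 ± 0.98 (SD, n = 4) by 1.79 ± 0.51 (SE), a 3.46-fold difference with a 95% interval from 0.70 to 2.89. It had an unadjusted p of 0.00335 and an adjusted p of 0.397 in limma. D1 and D2 exceeded the controls by 1.31 ± 0.55 and 1.28 ± 0.51 (SE), and the trend over the dose range was 1.59 (adjusted p = 0.369).

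In liver Dbp read -0.37 and -2.19 at D1, 0.57, -0.70 and 0.75 at D2, and 0.63, 0.47, -1.29 and 2.02 at D3. The D3 livers ran from below the control mean of -1.19 ± 1.34 (SD, n = 4) to the highest Dbp value of the series, and 2 of 4 were above every control. The D3 difference was 1.64 ± 0.73 (SE; limma, unadjusted p = 0.0425, adjusted p = 0.622). On the same D3 arrays the 6 liver markers read lower, by a median of -0.38. The livers of mice 17 and 20 had glandular stomach scores of 2.09 and 1.40 against -0.31 to 0.14 on the other liver arrays. In liver this score rests on 2 of the 10 listed genes, against 9 of 10 in forestomach. The part of these markers in the liver values of Dbp, Tef and Nfil3 was not tested. In forestomach Dbp read -1.24, -1.50, -2.01 and -0.38 at D0, -1.45, -0.84 and -2.10 at D1, 0.27, -0.94, -0.19 and -1.04 at D2, and 0.04, -0.56 and 0.53 at D3. Of the D3 values 2 of 3 lay above every control, and D1 lay within the control range or below it. The D3 difference was 1.28 ± 0.43 (SE; limma, unadjusted p = 0.0110, adjusted p = 1) and the trend 1.45 ± 0.43 (SE). The 5 forestomach arrays with low glandular markers carried the highest Dbp of their dose groups. With the glandular score as a covariate the D3 difference was 1.17, and on the 9 high-glandular arrays it was 1.20 with a single D3 array. A second Dbp probe gave D3 differences of 1.80 in lung, 1.56 in liver and 1.39 in forestomach.

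The D3 difference of Dbp did not separate the tissues. Lung minus liver was 0.15 (95% interval -1.61 to 1.90), lung minus forestomach 0.51 (-1.33 to 2.34) and liver minus forestomach 0.36 (-1.47 to 2.19), intervals that leave room for several-fold differences either way. Of the members tested, 0 of 8 had a D3 effect that was called different between lung and liver (0.0153% of all probes), 0 of 7 between lung and forestomach (0.0122%) and 0 of 7 between liver and forestomach (0%). None of them reached an unadjusted p under 0.05 in limma for these differences.

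Tef moved through a narrower range than Dbp. At D3 it read 1.78, 1.67, 1.51 and 2.32 in lung, 0.69, 0.91, 0.16 and 1.24 in liver and 0.47, 0.32 and 0.97 in forestomach, and at D2 it read 2.15, 1.26, 1.47 and 1.29 in lung, 0.69, 0.53 and 0.77 in liver and 0.63, 0.17, 0.59 and -0.19 in forestomach. Of the D3 values 3 of 4 in lung, 3 of 4 in liver and 2 of 3 in forestomach lay above every control of the tissue. The D3 minus D0 differences were 0.55, 0.56 and 0.97, with unadjusted p of 0.0379, 0.0485 and 0.00732 and adjusted p of 0.582, 0.635 and 1 in limma. At D1 Tef differed by 0.25, -0.12 and -0.32 in lung, liver and forestomach. Hlf in lung at D2 read 2.12, 1.37, 1.36 and 1.08, all above the controls (0.48 to 1.01). The D2 difference was 0.70 ± 0.25 (SE; limma, unadjusted p = 0.0156, adjusted p = 1) and did not pass. At D3 the difference was 0.53. In liver Hlf stayed between 2.17 and 3.09 on all 13 arrays, a 1.89-fold range, and its D3 difference was 0.17 (95% interval -0.25 to 0.59).

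Hlf in forestomach was highest on the low-glandular arrays at D2 (1 array) and D3, but not in the controls. Its D3 values were 2.18, 0.78 and 1.69, and the 2 high ones came from the low-glandular arrays, as did the 2.01 of D2. Among the controls the low-glandular mice 1 and 4 read 0.77 and 1.01, and the high-glandular mice 2 and 3 read 1.37 and 0.96. The 3 D1 forestomachs, all high-glandular, read 0.23 to 0.63, below every control, a difference of -0.62. The D3 difference was 0.53 over all arrays and -0.38 on the 9 high-glandular arrays, where D3 had a single array. The part of the glandular tissue in the Hlf values was not tested.

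**Figure D2:**
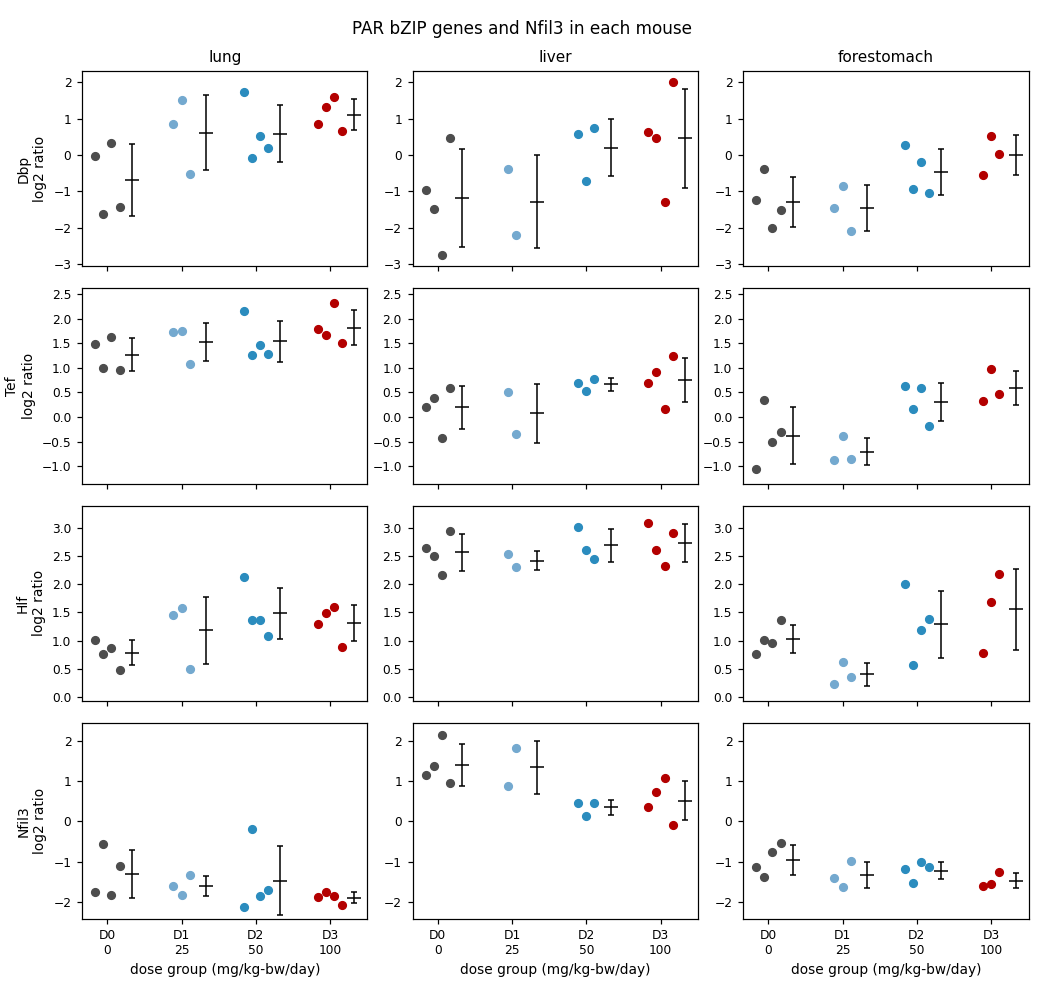
Log2 ratio of sample over reference (vertical axis) of Dbp, Tef, Hlf and Nfil3 in each mouse by dose group in mg/kg-bw/day (horizontal axis), with 1 point per array and a bar for the mean ± SD. The 4 D3 lungs lie between 0.66 and 1.59 for Dbp, above every control lung, and the 3 D2 livers lie between 0.13 and 0.47 for Nfil3, below every control liver.

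Nfil3 read below control at D3 in each tissue, with no difference past the adjusted threshold. Against control livers of 1.14, 1.38, 2.14 and 0.95, it read 0.87 and 1.81 at D1, 0.45, 0.13 and 0.47 at D2, and 0.36, 0.72, 1.07 and -0.08 at D3. All 3 D2 livers and 3 of 4 D3 livers lay below every control, and D1 overlapped with them. The D2 difference was -1.05 ± 0.31 (SE; limma, unadjusted p = 0.00508, adjusted p = 0.285) and the D3 difference -0.89 ± 0.29 (SE; unadjusted p = 0.00912, adjusted p = 0.459). The 6 liver markers read lower too, by a median of -0.23 at D2 and -0.38 at D3, with 4 of 6 at an unadjusted p under 0.05 at D3. In lung the D3 values of -1.89, -1.75, -2.08 and -1.86 lay close together, but the control lungs of mice 1 and 4 (-1.75 and -1.81) overlapped with them, and the difference was -0.59 (limma, unadjusted p = 0.117). Mouse 12 of D2, whose lung array carried muscle markers, had the highest lung value, -0.20. With it the lung D2 difference was -0.16 and without it -0.59. In forestomach the D3 difference was -0.52 (limma, unadjusted p = 0.0321, adjusted p = 1), with 2 of 3 values below every control.

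Tsc22d3 had no D3 difference that passed, and its difference from the effects on Dbp and Nfil3 was not tested. In lung it read 2.84, 2.97, 2.27 and 2.48 at D3, in liver 2.06, 1.95, 1.53 and 1.13, and in forestomach 1.32, 1.05 and 0.56, all within the range of the controls of the tissue except the 1.13 of liver. The D3 differences were 0.20 in lung (95% interval -0.42 to 0.83), -0.02 in liver (-0.51 to 0.48) and 0.26 in forestomach (-0.47 to 1.00). The intervals reached past 1.5-fold in lung and forestomach and stayed within it in liver. At D1 both livers (1.20 and 1.32) lay below every control, a difference of -0.42 (limma, unadjusted p = 0.159). Leaving out 1 array moved it to between -0.52 and -0.18, the latter without control mouse 2. Of 14 other glucocorticoid target genes, 13 were tested in lung, 14 in liver and 13 in forestomach, and none was called at any dose. At an unadjusted p under 0.05 in limma, 1 was higher and 1 lower at D3 in lung, and 1 was lower in liver and in forestomach. Their median D3 difference was 0.07, 0.00 and -0.04 in the same order. Fkbp5, a co-chaperone of the glucocorticoid receptor, differed by 0.77, 0.76 and 0.24 at D2 and by -0.14, -0.14 and -0.01 at D3, the kinase gene Sgk1 by -0.18, -0.09 and 0.11, and Zbtb16 by -0.69, -0.84 and -0.04, none of them at an unadjusted p under 0.05 in limma. The D2 differences of Fkbp5 rested on mouse 12, which read 1.87 in lung, 2.12 in liver and 1.51 in forestomach, against at most -0.66, 0.21 and 0.44 in every other mouse. The same mouse had the highest Tsc22d3 of all mice in lung (3.22) and forestomach (1.73), and 1.75 in liver. Its muscle score was high in lung alone (6.15, against -0.06 in liver and -0.73 in forestomach).

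The remaining members were E-box repressors and a cell cycle gene. Bhlhe40 and Bhlhe41 (DEC1 and DEC2) compete for E-boxes, and their D3 differences were -0.15 and 0.13 in lung. For Bhlhe40 they were 0.39 in liver and 0.34 in forestomach. Leaving out 1 array moved these to between 0.14 and 0.64 and to between 0.05 and 0.55. In liver Bhlhe41 was well above background on 1 of 4 control arrays and 3 of 4 D3 arrays, and no difference is given. Bhlhe40 in lung was highest in mouse 12 (0.27), the array with muscle markers, against -1.51 to -0.52 on the others. Mouse 12 was also the highest for Bhlhe40 in forestomach (0.10), where its muscle score was -0.73. Ciart in lung read 0.07 ± 0.25 (SD, n = 4) at D0 and -0.27 ± 0.31 (SD, n = 4) at D3, a difference of -0.33 with overlapping groups (95% interval -0.74 to 0.07). Wee1, whose kinase holds CDK1 inactive before mitosis, differed by 0.25, 0.35 and -0.02 at D3. Leaving out 1 array moved the liver value to between 0.04 and 0.67 and the forestomach value to between -0.41 and 0.34. In forestomach at D1 it was above every control in all 3 mice, at -0.22 ± 0.29 against -0.93 ± 0.31 (SD), with 2 of the 4 control arrays well above background. That difference was 0.71 ± 0.31 (SE; limma, unadjusted p = 0.0404, adjusted p = 0.399), and it was 0.16 at D2. All 3 D1 arrays were high-glandular, whereas the 2 control arrays not above background were the low-glandular ones of mice 1 and 4. On the high-glandular arrays alone the difference was 0.45, and with the glandular score as a covariate 0.32, neither at an unadjusted p under 0.05. A dimmer second Bhlhe41 probe was well above background on 3 of 15 lung arrays and on none of the control lungs, and gave no usable difference.

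**Figure D3:**
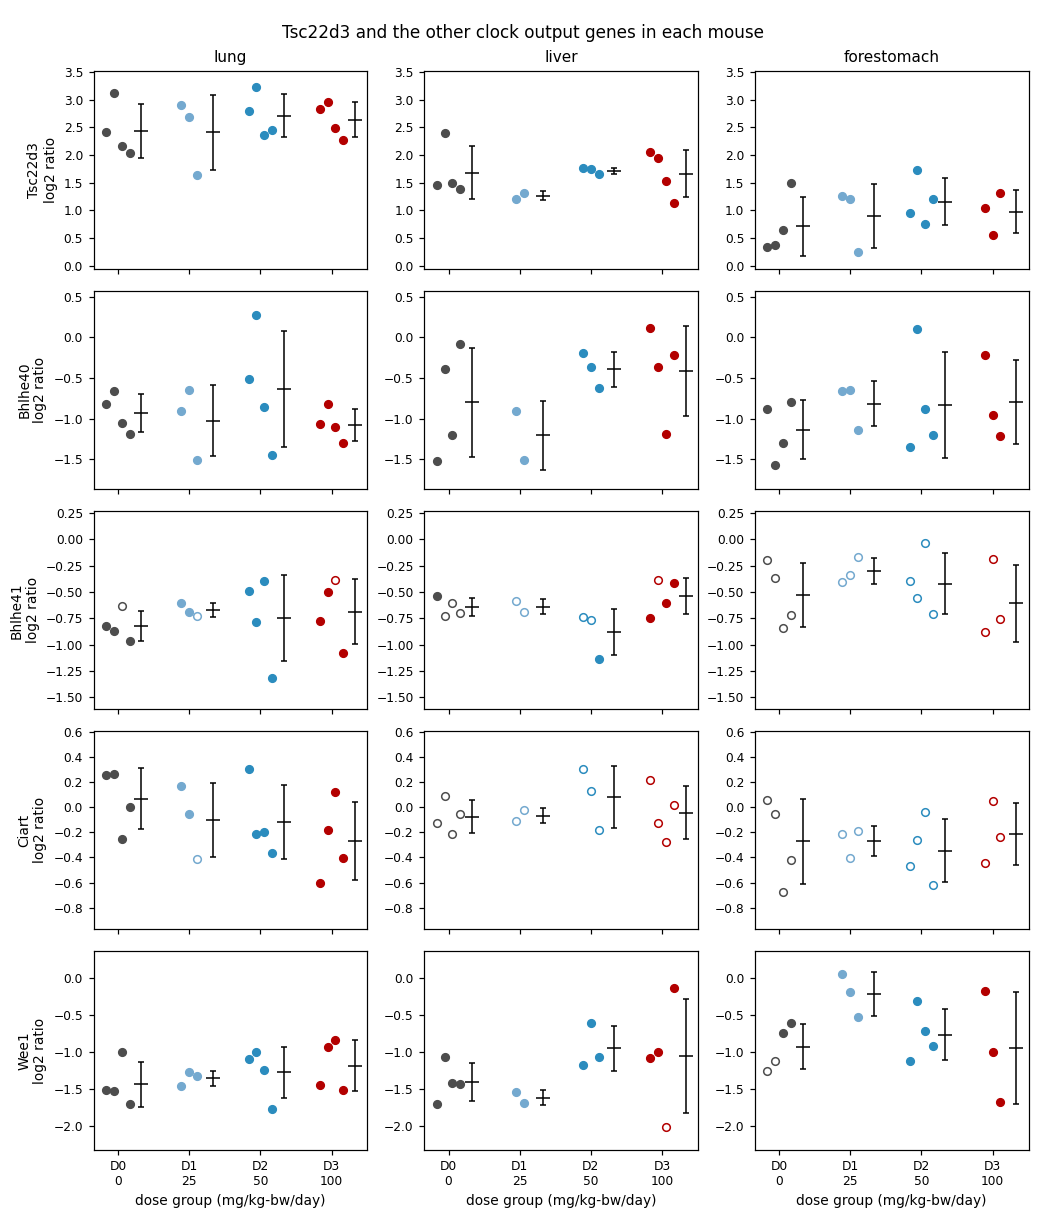
Log2 ratio of sample over reference (vertical axis) of Tsc22d3, Bhlhe40, Bhlhe41, Ciart and Wee1 in each mouse by dose group in mg/kg-bw/day (horizontal axis), with filled points for spots well above background, open points for spots that were not, and a bar for the mean ± SD. Tsc22d3 at D3 overlaps with the controls in each tissue, and all Ciart points of liver and forestomach are open.

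The genes that act before and after these factors were read from lists. Of 12 core clock loop genes none was called at any dose among the 12, 11 and 9 tested in lung, liver and forestomach. At an unadjusted p under 0.05 in limma, 1 was higher and 1 lower at D3 in lung, 1 higher and 3 lower in liver, and 1 higher in forestomach. Arntl differed by -0.97, -0.81 and -0.35 at D3 in that order, Per1 by 0.72, 0.59 and 0.53, Per2 by 0.16, 0.50 and 0.27, and Nr1d1 by 0.36, -0.09 and 0.26, while Per3 differed by 0.54 in lung. Per2 was well above background on 2 of 4 control arrays in liver and in forestomach, so its differences there rest on dim values. Per3 was so on 1 of 4 control livers. The counts cover the whole list, not these named genes alone. Among the others, mean Nr1d2 in lung was 0.71 at D3 against -0.02 at D0. In liver the D3 and D0 means were 1.30 and 0.76 for Cry2, 0.28 and 0.68 for Clock, and 1.99 and 2.36 for Rora. Of 6 genes known as targets of the PAR bZIP factors, 5 had a probe and 4, 5 and 3 were tested, with no call at any dose and 1, 0 and 0 higher at an unadjusted p under 0.05 at D3 in limma. Their median difference was 0.21 in lung, 0.24 in liver and -0.10 in forestomach at D3, and 0.77 in liver at D2. Por, the electron donor of the microsomal P450 enzymes, was higher by 0.61 in lung at D3 (limma, unadjusted p = 0.00582, adjusted p = 0.423). It was higher by 0.99 in liver at D2 (limma, unadjusted p = 0.0403, adjusted p = 0.443), and differed by -0.10 in forestomach at D3. Neither in lung at D2 nor in liver at D3 was any target, Por included, at an unadjusted p under 0.05 in limma.

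Over the mice of a tissue, the PAR bZIP genes went together, and Dbp and Tef went opposite to Nfil3 in lung and liver. With Nfil3, 5 of 9 pairs passed, none of them in forestomach, and the relation of Dbp with Tsc22d3 passed in no tissue. Correlations were computed for 10 pairs of genes in each of 3 tissues, 30 in all, and 15 passed an adjusted p of 0.05 (permutation test, 100000 resamples, for which an unadjusted p of 1e-05 is the smallest possible). Both values of a point came from the same array. Dbp and Tef had r = 0.91 in lung, 0.95 in liver and 0.88 in forestomach (rho = 0.95, 0.92 and 0.89, permutation test, adjusted p = 0.0003 for each r). Dbp and Hlf had r = 0.84, 0.78 and 0.69 (permutation test, adjusted p = 0.0003, 0.00716 and 0.0171), and Tef and Hlf 0.82, 0.71 and 0.68 (adjusted p = 0.00137, 0.0171 and 0.0171). Centred within dose groups, Dbp and Tef kept r = 0.91, 0.92 and 0.74, so the relation was not only one between dose groups. Without the 2 arrays farthest from the median of Dbp their r was 0.89, 0.90 and 0.83. Relations with Hlf were less firm: without the 2 farthest arrays, Dbp and Hlf as well as Tef and Hlf missed the threshold in liver (r = 0.69 and 0.48) and in forestomach (0.59 and 0.66), and Tef and Hlf in forestomach had r = 0.36 centred within dose groups.

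Dbp and Nfil3 had r = -0.70 in lung (rho = -0.75, permutation test, adjusted p = 0.0161), -0.88 in liver (rho = -0.85, adjusted p = 0.00045) and -0.49 in forestomach (rho = -0.52, adjusted p = 0.137). The liver mice show it directly: mouse 3 had the lowest Dbp (-2.76) and the highest Nfil3 (2.14), and mouse 20 the highest Dbp (2.02) and the lowest Nfil3 (-0.08). The lung relation did not pass without the 2 arrays farthest from the median (r = -0.53, permutation test, adjusted p = 0.111), and it was -0.85 without mouse 12. Tef and Nfil3 had r = -0.66, -0.90 and -0.32, and Hlf and Nfil3 -0.37, -0.70 and 0.16. Of these, both liver values and the lung value of Tef passed. The liver value of Hlf and Nfil3 did not pass without the 2 farthest arrays (r = -0.56, permutation test, adjusted p = 0.143). The lung value of Tef and Nfil3 did not pass centred within dose groups (r = -0.57, permutation test, adjusted p = 0.0537). Without mouse 12 the lung value of Hlf and Nfil3 was -0.61 and passed (permutation test, adjusted p = 0.0373). Centred within dose groups, Dbp and Nfil3 had r = -0.68, -0.83 and -0.44, and centred within slides -0.81, -0.89 and -0.58.

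Dbp and Tsc22d3 had r = 0.23, -0.06 and 0.05 in lung, liver and forestomach (rho = 0.24, 0.00 and 0.02, permutation test, adjusted p = 0.594, 0.891 and 0.891). Of the 12 pairs with Tsc22d3 only Hlf in lung passed, at r = 0.59 (permutation test, adjusted p = 0.0409), and its rho of 0.55 did not (adjusted p = 0.0758). Relations of Hlf in forestomach moved with the dose groups, the slides and the glandular markers. Dbp and Hlf there had r = 0.47 centred within dose groups, 0.94 centred within slides and 0.27 on the 9 high-glandular arrays, where Dbp and Tef had 0.85.

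**Figure D4:**
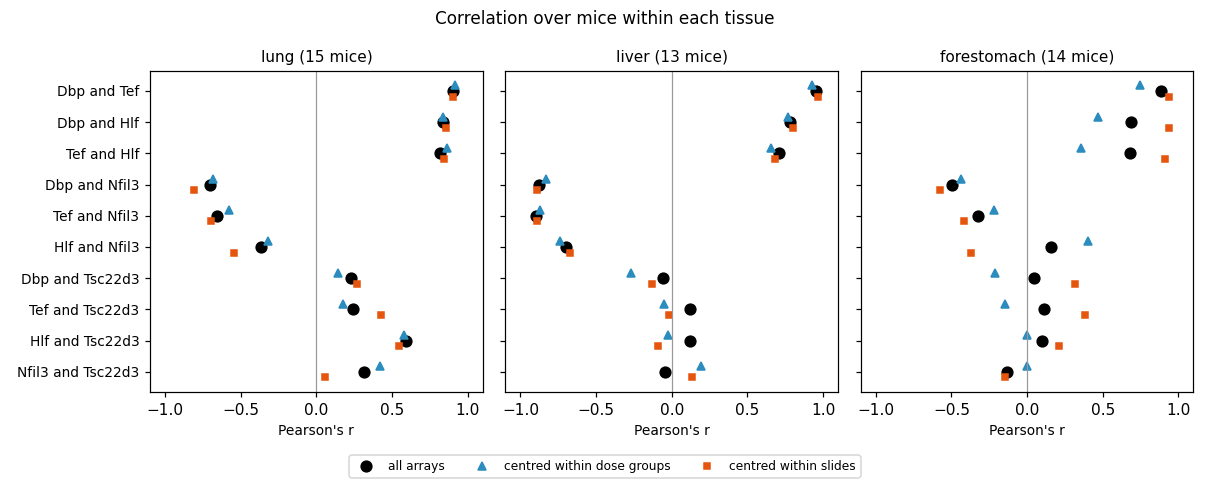
Pearson's r over mice (horizontal axis) for 10 pairs of members (vertical axis) in lung, liver and forestomach, as measured (circles), centred within dose groups (triangles) and centred within slides (squares). Dbp and Tef lie at 0.88 or above as measured in each tissue, pairs of Dbp or Tef with Nfil3 lie below 0, and pairs with Tsc22d3 lie between -0.13 and 0.31 as measured (circles) apart from Hlf in lung.

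Mice with high Dbp in 1 tissue tended to have high Dbp in the others, with exceptions such as mouse 8 (1.52 in lung, -0.37 in liver and -0.84 in forestomach). Relations between tissues were computed for each member that passed the filter in both, 22 in all, and 14 passed an adjusted p of 0.05 for r and 6 for rho. Dbp in liver and forestomach had r = 0.97 and rho = 0.97 over 12 mice (permutation test, adjusted p = 0.00022 for r), and no slide held both tissues of these mice. The r was 0.95 centred within dose groups, 0.88 centred within slides, 0.95 without the 2 mice farthest from the median and 0.98 over the 7 mice with high-glandular forestomachs. Lung and liver had r = 0.79 over 13 mice and lung and forestomach 0.76 over 14 mice (permutation test, adjusted p = 0.00653 for both), and 12 of those 14 mice had lung and forestomach on 1 slide. Neither of these relations with lung passed without the 2 farthest mice (r = 0.69 and 0.70, permutation test, adjusted p = 0.0541 and 0.0533). Mice 2, 3 and 9 were the lowest in lung as well as in liver and forestomach, and mice 11, 13, 16 and 20 were above 0.5 in both lung and liver. The D3 mouse 19, lowest of its group in liver (-1.29), was also lowest of its group in lung (0.66).

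Tef had r = 0.78, 0.58 and 0.83 for lung with liver, lung with forestomach and liver with forestomach. Hlf had 0.63, 0.34 and 0.71 in the same order, and Nfil3 0.21, 0.33 and 0.66. The lung with forestomach value of Tef was 0.18 over the 9 high-glandular mice. Without the 2 farthest mice it was 0.41 (permutation test, adjusted p = 0.302). Centred within dose groups, Tef passed for lung with liver (0.70), but not for lung with forestomach (0.51) or liver with forestomach (0.61). Without the 2 farthest mice, Nfil3 in lung and liver had r = 0.79 and passed (permutation test, adjusted p = 0.0297). The liver and forestomach value of Hlf was -0.01 over the 7 high-glandular mice. Tsc22d3 had r = 0.64, 0.86 and 0.65, of which lung with forestomach had the smallest adjusted p (permutation test, 0.00176) and held at 0.87 centred within dose groups and 0.75 centred within slides. The other pairs of tissues were 0.42 (lung with liver) and 0.35 (liver with forestomach) centred within slides, and neither passed by rho (permutation test, adjusted p = 0.0723 for both). Mouse 2 was the highest control for Tsc22d3 in all 3 tissues (3.12, 2.39 and 1.49), yet among the lowest for Dbp. Bhlhe40 had r = 0.36, 0.67 and -0.00122, Wee1 0.63, 0.11 and 0.02, and Bhlhe41 -0.11 for lung with liver. The 0.67 of Bhlhe40 and the 0.63 of Wee1 passed, but neither did by rho (permutation test, adjusted p = 0.106 and 0.0937). Without the 2 farthest mice they were 0.37 and 0.53 and did not pass (permutation test, adjusted p = 0.332 and 0.195). Centred within slides the Bhlhe40 value was 0.16, and centred within dose groups it was 0.75 and passed. Without the 2 mice farthest from the median, 4 of the 22 relations passed, and 8 passed centred within dose groups.

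**Figure D5:**
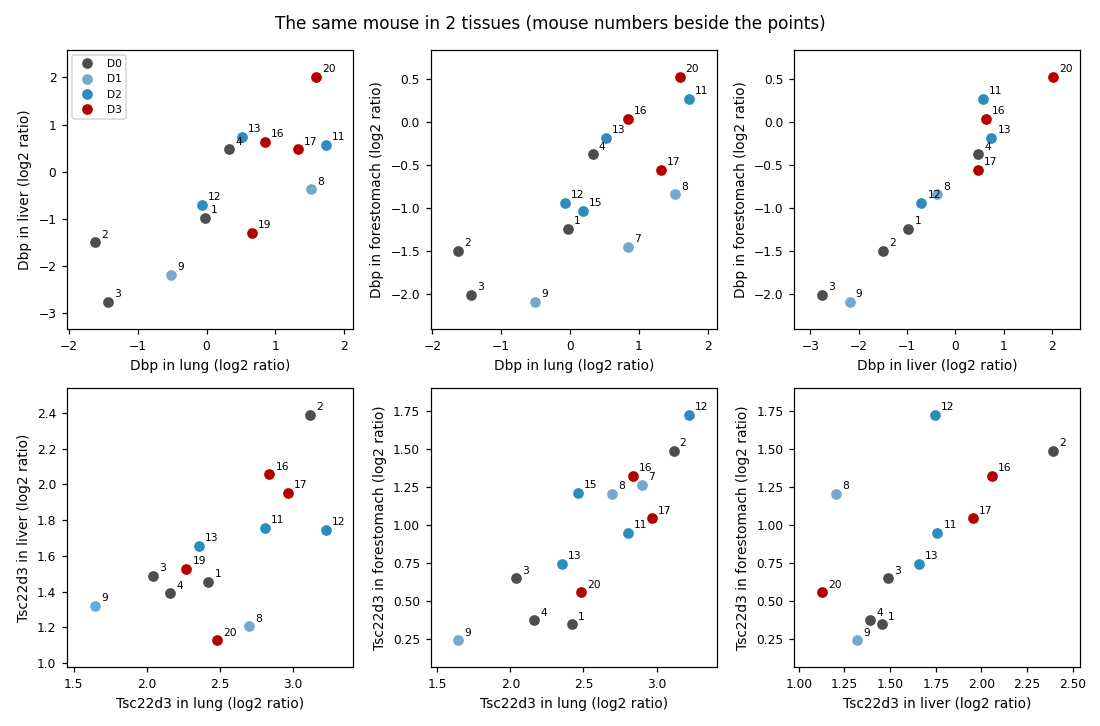
Log2 ratio of sample over reference of Dbp (upper panels) and Tsc22d3 (lower panels) in 1 tissue (horizontal axis) against another (vertical axis), with 1 point per mouse, numbered and coloured by dose group. For Dbp in liver and forestomach the 12 mice lie near 1 line, with mice 3 and 9 at the low end and mouse 20 at the high end.

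The probes whose log ratio went most like that of Dbp were listed as a description, with r over the arrays of a tissue. Tef ranked 2 of 32623 in lung, 1 of 30410 in liver and 4 of 25285 in forestomach. Hlf ranked 6, 77 and 209. Counted from the lowest r, Nfil3 ranked 161, 12 and 2102. Outside the members, Nr1d2, the gene of the nuclear receptor REV-ERBβ, was among the 3 named genes with the highest r in each tissue (0.87, 0.91 and 0.89). The others were Tspan4 (0.90) and C1qtnf1 (0.85) in lung, Plekha6 (0.92) and Ctdsp1 (0.91) in liver, and Tbkbp1 (0.92) and Polr3f (0.90) in forestomach. The lowest were Arntl (-0.92), Ddx47 (-0.81) and Ift20 (-0.81) in lung, Icam5 (-0.91), Tars (-0.90) and Chka (-0.89) in liver, and Tnfrsf12a (-0.80), Gpx1 (-0.79) and Mlec (-0.78) in forestomach. Arntl ranked 1, 8 and 120 from the lowest r, at -0.92, -0.88 and -0.69.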

How the data were processed

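Members and gene lists were chosen with earlier results of these data known. The authors deposited 2-colour Agilent scanner files: red and green median signal intensity per spot, and a log10 ratio made by the scanner software (Feature Extraction 10.7.3.1 for lung and forestomach, 11.0.1.1 for liver). They also deposited a table of processed log2 values, whose exact scaling is unstated. Their methods name no background subtraction, LOWESS and a MAANOVA F test, with calls at an adjusted p of 0.05 and 1.5-fold. MAANOVA was replaced by limma 3.58.1 (R 4.3.3).

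From the median signals, log2 of red over green was normalised by loess within each array, without background subtraction, after leaving out 3671 control spots, and spots of a probe were averaged (59305 spots, 55681 probes; 47.4% carry a symbol). A probe was kept in a tissue where it was well above background on at least 3 lung, 2 liver or 3 forestomach arrays (32701, 30468 and 25321 probes). No member spot was saturated. The brightest probe of a gene was its main probe. All dose groups of a tissue shared 1 fit, and 1 fit over all 42 arrays gave tissue contrasts. All tests were two-sided, with Benjamini-Hochberg adjustment over all probes kept for limma, and over the 30 or 22 relations of a family for correlations. The trend was scaled to the dose range.

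Mouse numbers in the labels pair tissues, since they mark the same animal; the mouse correlation over all probes was 0.0770 to 0.0826. All 9 members were named, with 3 genes most and least like Dbp in each tissue. Against the deposited log2 table, the loess values had r of 0.997 to 0.999 in lung and 0.994 to 0.999 in forestomach, but -0.0030 to 0.00034 in liver by probe ID, so its liver columns were not used. A marker score is the mean over a list's kept genes of the log2 ratio minus the gene's median over the arrays of the tissue. The fits were tested on simulated data. The alternatives tried are given with their effect in the closing section.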

Additional observations from a re-analysis of the deposited data

Results flagged for a closer look

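Tsc22d3 in the liver of control mouse 2 stood apart from the other control livers, at a log2 ratio of 2.39 with the next value at 1.49, a gap of 0.902 of the group's range that exceeded Dixon's limit for 4 samples. Of 57 groups of member values tested in this way this was the 1 that passed, and chance alone gives about 1 in 20. The same mouse was the highest control for Tsc22d3 in lung (3.12) and forestomach (1.49).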

How the results depend on the processing

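The number of members called was recomputed without background subtraction and with it (normexp), with Aquantile scaling, with the scanner's own log ratio, without the dim-probe filter, with array weights, with slides or marker scores in the fit, on pairs of groups alone, and leaving out each array. The count of members called was 0 in each dose comparison and each difference of high-dose effects under all of these. Between vehicle tissues it was 3 or 4 for lung and liver, 2 for lung and forestomach, and 3 or 4 for liver and forestomach, and no direction reversed at an unadjusted p of at most 0.05. Without that limit 32 of 1360 values of single members changed sign, and 92 of 1380 when an array was left out. Dbp in lung at D3 ranged from 1.48 to 2.13 with adjusted p from 0.189 to 0.860, and Nfil3 in liver at D2 from -1.20 to -0.81 with adjusted p from 0.176 to 0.532 (limma). With the replicate block, the mouse as a random block, the tissue counts were again 4, 2 and 3 and Tef in lung exceeded liver by 1.08, so the pairing changed no call. The call of Tsc22d3 between vehicle lung and liver was lost with the scanner's log ratio (0.53, limma, adjusted p = 0.112). Of the 30 relations within tissues, 15 passed as measured and 8 without the 2 farthest arrays, and of the 22 between tissues, 14 passed as measured, 8 centred within dose groups and 4 without the 2 farthest mice. Leaving out mice lowers their number by construction, and the cause of the lower count after centring was not tested. The forestomach values without the low-glandular arrays and those without the muscle arrays were chosen after seeing the data.

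The authors' value table could not be used for liver, and a slide block was not run between tissues, since liver lay on slides of its own. Leaving out 1 of the 2 liver D1 arrays left 1, assumed to vary like the other groups. The number of arrays limits precision, and Ciart was not well above background outside lung, nor Bhlhe41 in forestomach.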
